A study of Mus musculus with 39 samples.

Results

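MGCD0103-treated mouse embryos at the 2-cell stage were compared with untreated 2-cell embryos on 6 of the 39 arrays of the series, 3 per group. The comparison covered the 15914 named genes that were detected on at least 1 array of each of 8 conditions of the series. The embryos of both groups came from B6D2F1 oocytes fertilized in vitro by ICR sperm, and the RNA on an array was pooled from 100 embryos. Treated zygotes spent 6 h in 10 µM MGCD0103, starting 4 h after insemination, and were then returned to medium without the inhibitor, so that the drug had been withdrawn while the embryos were zygotes. Control embryos received no inhibitor, and the methods do not mention a solvent control. Both groups were collected 24 h post insemination as 2-cell embryos. The other arrays of the series held untreated oocytes and embryos from the GV oocyte to the blastocyst, MGCD0103-treated 1-cell embryos, and embryos treated with T247 at the same dose for the same time. The comparison asks how a short block of histone deacetylation in the zygote changes the transcriptome at the next stage.

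Histone deacetylases (HDACs) remove acetyl groups from histone tails and, within corepressor complexes, help to keep genes silent. MGCD0103 acts mainly on the class I enzymes HDAC1, HDAC2 and HDAC3, whereas T247 is selective for HDAC3. The mouse embryo starts life on maternal RNA stored in the oocyte. During the 2-cell stage it degrades much of that RNA and transcribes its own genome on a large scale, which is called zygotic genome activation (ZGA).

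Markers of 2-cell embryos and of oocytes were detected in both groups. All 7 measured 2-cell markers, among them the Zscan4 genes, and all 6 oocyte markers were well above background on every array of both groups. Of 25 cumulus and granulosa cell markers 8 were well above background on all control arrays and 9 on all MGCD0103 arrays. Their summed signal was 264782 to 265277 in controls and 471483 to 472410 after MGCD0103, most of it from Kctd14. The normalization gives arrays of a group the same value at the same rank. The narrow ranges of a sum carried by 1 very bright gene are therefore no measure of replicate spread. Other markers of this list moved in both directions, as Foxl2 (mean log2 signal 13.75 in controls and 13.37 after MGCD0103) and Cyp19a1 (7.32 and 8.12). Of 30 sperm markers 9 and 8 and of 18 blood cell markers 5 and 7 were well above background on all control and on all MGCD0103 arrays. Signals well above background made up 48.3 to 55.0% of the spots of the controls and 53.3 to 58.3% of those of the treated embryos. The arrays were pools of embryos, so that fewer cells expressing a gene and less RNA per cell cannot be told apart. The 3 MGCD0103 arrays lay on slide 6 and the controls on slides 1 to 3, so that slide and treatment cannot be told apart.

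Control replicate 1 stood apart from the other controls. Its log2 signal over 15914 genes correlated at r = 0.935 and 0.945 with control replicates 2 and 3, which correlated with each other at 0.994. With the 3 MGCD0103 arrays it correlated at 0.958 to 0.959, whereas control replicates 2 and 3 correlated with them at 0.902 to 0.921. The MGCD0103 arrays correlated at 0.993 to 0.994 among themselves. The median SD of a gene was accordingly 0.41 (log2) over the controls and 0.11 over the treated arrays, n = 3 each. Genes that rose from the untreated 1-cell to the 4-cell stage had a median log2 signal of 7.96 on this array and 8.90 and 8.79 on the other controls, and genes that fell had 9.10 against 8.49 and 8.58, so that this array lay nearer to the 1-cell level in both. Whether its embryos were at an earlier point of the 2-cell stage was not tested, and every LFC against the controls includes this array. Differentially expressed genes, in all and by course and gene list, were therefore also counted with every control array left out in turn. So were the genes whose LFC changed between stages. Counts of detection, of levels between stages, of further probes and of genes shared with the 1-cell stage or T247 were not.

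MGCD0103 changed the level of many genes in both directions. By limma, 4382 of 15914 genes (27.5%) were differentially expressed genes (DEGs), with a log2 fold change (LFC) of at least 1 in size and a Benjamini-Hochberg adjusted p below 0.05. Of these, 1927 genes (12.1%) were higher and 2455 (15.4%) were lower in MGCD0103-treated embryos. An LFC of at least 2 in size was found for 344 of the higher and 756 of the lower DEGs, and one of at least 3 for 73 and 148. The groups did not overlap in 3730 (85.1%) of the DEGs, against 49.1% of all genes. The median LFC of all genes was 0.06.

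Without control replicate 1 the counts were 2909 higher and 3164 lower, without replicate 2 they were 1447 and 2038, and without replicate 3 they were 1603 and 2121. Called with each control left out in turn were 1112 of the higher DEGs (57.7%) and 1923 of the lower DEGs (78.3%), which is 6.99% and 12.1% of all genes. The 4382 DEGs did not change sign in any of these fits. Each SE and adjusted p given here rests on 1 spread per gene, pooled over 24 arrays of 8 conditions. The SE of a gene can therefore understate the wider spread of the 2-cell controls. When the spread was estimated from the 6 arrays alone, 1251 genes were higher and 1840 lower. The lower genes made up 56.0% of the DEGs, and this excess depended on the scaling and the filter. With 75th percentile scaling 2213 genes were higher and 2220 lower (50.1% of the DEGs), with quantile normalization the lower share was 51.8% and without a detection filter 50.7%. After normexp background correction it was 67.4%, with 877 higher and 1814 lower.

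**Figure D1:**
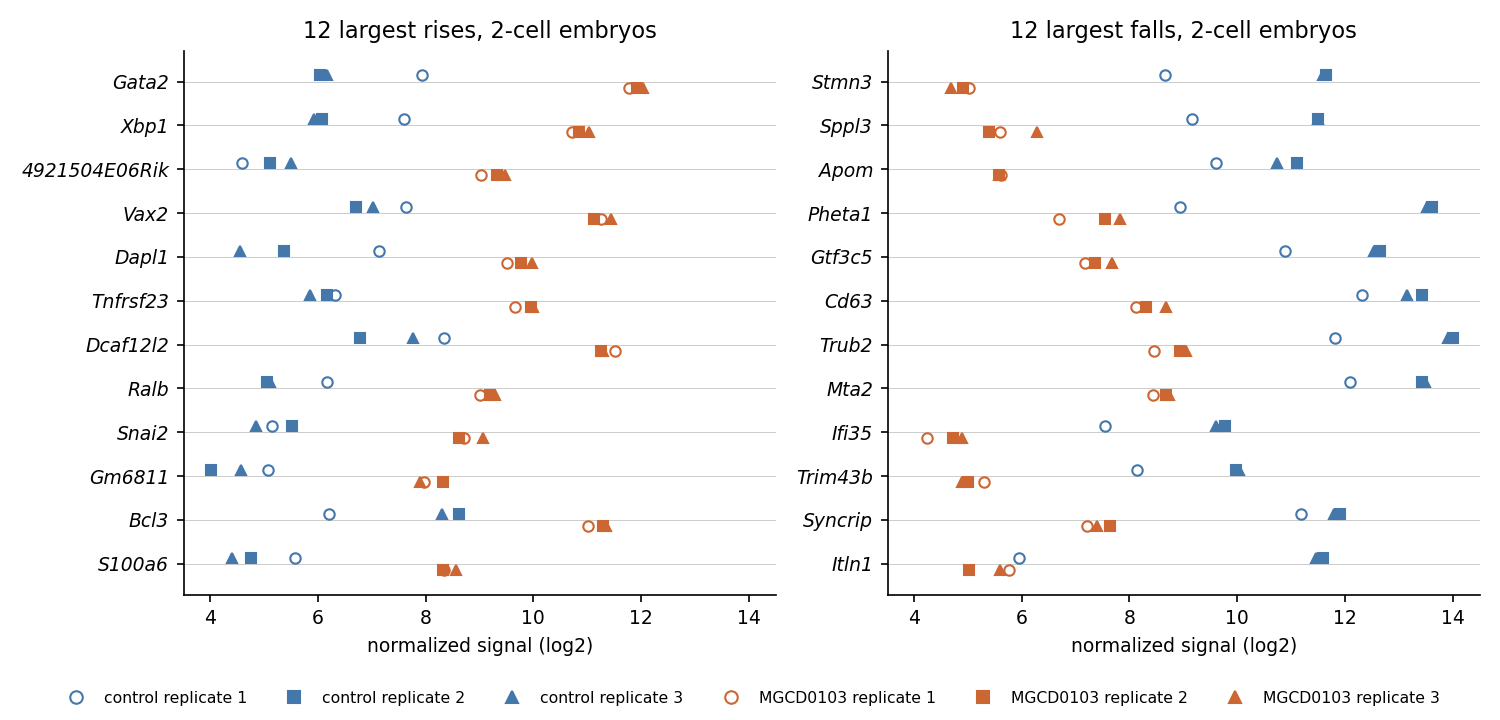
Normalized log2 signal (x axis) of the 12 genes that rose most and the 12 that fell most among DEGs measured above background on all 6 arrays, chosen without overlap of the groups and called with each control left out, 1 symbol per array. The choice fixed that the groups lie apart, and control replicate 1 (open blue circle) is the control nearest to them in 9 of the 12 rises and in all 12 falls.

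The leading rises included transcription factors and signalling genes of later embryos and tissues. Gata2, a zinc finger factor of blood and trophoblast development, had log2 signals of 7.93, 6.03 and 6.17 in the controls and 11.78, 11.93 and 12.03 after MGCD0103. The treated arrays stood close together and far above all controls, with an LFC of 5.20 (SE 0.35, adjusted p = 1.1e-09), or 36.9-fold. On untreated arrays normalized without the 2-cell stage, Gata2 was between 2.11 and 5.43 in GV and MII oocytes and in 1-cell, 4-cell, 8-cell and morula embryos and reached 12.92 in the blastocyst.

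Xbp1, the transcription factor of the unfolded protein response, measured 7.59, 6.07 and 5.93 in the controls and 10.72, 10.84 and 11.03 after MGCD0103. Its LFC was 4.33 (SE 0.35, adjusted p = 9.4e-09), and the lowest treated array lay above the highest control. Its untreated level also rose late, to 13.38 in morulae and 14.00 in blastocysts. The developmental factors Vax2 (homeobox, LFC 4.16) and Snai2 (zinc finger repressor of epithelial genes, 3.62) rose as well. So did Bcl3 (nuclear partner of NF-kB, 3.51), Ralb (Ras-like small GTPase, 3.71), S100a6 (calcium-binding protein, 3.50) and Tnfrsf23 (decoy receptor for TRAIL, 3.75). The other leading rises were 4921504E06Rik (4.21), Dapl1 (4.06), Dcaf12l2 (3.72) and Gm6811 (3.51). Over these 12 genes the fold change was 11.4 to 36.9 and the highest adjusted p by limma was 1.2e-05. Their untreated courses differed. From the 1-cell to the 4-cell stage 5 of them rose, 4 stayed level and 3 fell, and 5 had their untreated maximum in the blastocyst.

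The leading falls were genes that untreated embryos switch up after the 1-cell stage. Stmn3, a microtubule-destabilizing stathmin, had log2 signals of 8.66, 11.66 and 11.59 in the controls and 5.03, 4.91 and 4.69 after MGCD0103. The treated arrays lay far below all controls, and control replicate 1 lay between them and the other controls. The LFC was -5.76 (SE 0.48, adjusted p = 1.3e-08), or 54.2-fold lower, and the difference from control replicate 1 alone was -3.79.

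Sppl3, an intramembrane protease of the secretory pathway, measured 9.16, 11.51 and 11.49 in the controls and 5.59, 5.39 and 6.29 after MGCD0103 (LFC -4.96, SE 0.46, adjusted p = 4.5e-08). Apom, a lipoprotein component that carries sphingosine-1-phosphate, measured 9.61, 11.11 and 10.74 against 5.62, 5.58 and 5.57 (LFC -4.89, SE 0.25, adjusted p = 4.5e-11). In both genes the groups were far apart, and control replicate 1 was the lowest control. Among the leading falls were also genes of gene expression itself. They were Gtf3c5 (subunit of the RNA polymerase III factor TFIIIC, LFC -4.62), Trub2 (mitochondrial pseudouridine synthase, -4.42), Mta2 (subunit of the NuRD deacetylase complex, -4.38) and Syncrip (the RNA-binding protein hnRNP Q, -4.21). Cd63, a tetraspanin of late endosomes (-4.59), Pheta1, an endosomal trafficking protein (-4.67), the interferon-induced Ifi35 (-4.35) and Trim43b of the preimplantation Trim43 family (-4.32) completed the list together with Itln1. Itln1, a carbohydrate-binding lectin, had an LFC of -4.21 that rested on control replicates 2 and 3, at 11.59 and 11.47. Control replicate 1 was at 5.94, next to the treated arrays at 5.76, 5.02 and 5.59, and the call was lost when the spread came from the 6 arrays alone. All 12 genes rose from the 1-cell to the 4-cell stage in untreated embryos. With the 2-cell stage left out, 6 of them had their untreated maximum at the 4-cell and 4 at the 8-cell stage.

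The promoters of the leading genes are shown because promoter composition was compared between the DEGs of both directions. The stretches are the 250 bases before the RefSeq transcription start (build GRCm38.p6, the first start listed for a gene), 5′ to 3′ on the gene's strand, with each CG dinucleotide in capitals for the 2 largest rises and the 2 largest falls.
Gata2, chr6:88193641-88193890, plus strand: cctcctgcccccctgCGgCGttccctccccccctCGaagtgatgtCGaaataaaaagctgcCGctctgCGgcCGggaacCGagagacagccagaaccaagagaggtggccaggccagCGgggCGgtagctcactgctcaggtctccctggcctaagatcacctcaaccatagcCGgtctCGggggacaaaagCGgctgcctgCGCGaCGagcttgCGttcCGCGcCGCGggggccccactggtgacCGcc
Xbp1, chr11:5520391-5520640, plus strand: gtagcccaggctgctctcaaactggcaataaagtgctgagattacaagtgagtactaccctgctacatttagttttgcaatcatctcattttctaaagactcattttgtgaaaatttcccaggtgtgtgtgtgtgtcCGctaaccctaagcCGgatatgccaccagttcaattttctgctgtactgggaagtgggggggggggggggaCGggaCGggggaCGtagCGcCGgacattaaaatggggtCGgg
Stmn3, chr2:181314501-181314750, minus strand: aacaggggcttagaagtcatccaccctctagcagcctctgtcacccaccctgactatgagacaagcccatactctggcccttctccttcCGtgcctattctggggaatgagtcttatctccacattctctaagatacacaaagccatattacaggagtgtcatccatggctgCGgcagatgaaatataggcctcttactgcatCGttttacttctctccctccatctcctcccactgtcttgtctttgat
Sppl3, chr5:115011274-115011523, plus strand: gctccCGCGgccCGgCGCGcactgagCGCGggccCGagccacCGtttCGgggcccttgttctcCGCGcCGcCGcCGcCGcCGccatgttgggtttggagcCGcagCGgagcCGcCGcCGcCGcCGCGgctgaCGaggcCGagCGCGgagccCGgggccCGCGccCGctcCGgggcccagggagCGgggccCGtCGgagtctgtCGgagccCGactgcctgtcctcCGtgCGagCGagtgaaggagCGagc
These 4 promoters held 22, 8, 3 and 43 CG dinucleotides, so that single genes of either direction could be rich or poor in CG. Over all protein-coding genes tested, 11960 of 14848 had a promoter in the table. The median count of CG dinucleotides in 250 bases was 9 (quartiles 4 and 18) for the 1446 higher DEGs with a promoter, 16 (9 and 22) for the 1821 lower DEGs and 14 (6 and 21) for all 11960. Promoters with at least 10 of them made up 49.7% of the higher DEGs, 74.3% of the lower DEGs and 64.1% of all. The higher DEGs of level untreated course were the poorest of the classes compared, with a median of 7 against 13 for uncalled genes of the same course.

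Short motifs, 7 in number, were searched by exact letters on both strands of the same 250 bases. TATAAA, the TATA box core, was held by 13.0% of the promoters of higher DEGs, by 6.43% of those of lower DEGs and by 8.59% of all. CCGGAAGT, the core letters bound by ETS factors such as GABPA, was held by 2.63, 7.63 and 5.21%. Among ribosome biogenesis genes its share was 22.8% (18 of 79). For CCAAT the shares in the same order were 38.7, 34.2 and 36.7%, for GGGCGG 47.1, 56.3 and 52.9%, for TGACGTCA 2.21, 3.73 and 2.53% and for CACGTG 6.85, 8.13 and 7.91%. For the 7th motif they were 0.69, 1.87 and 1.40%. These motifs do not contain one another, but all except TATAAA and CCAAT contain CG. Each motif with CG was rarer in the promoters of higher DEGs than in those of lower DEGs or of all. The count of CG dinucleotides was lowest in the higher DEGs too, so that these shares are not independent of it. No test was made of these shares, and whether they differ beyond the CG count was not tested. The largest rise with TATAAA and the largest fall with CCGGAAGT are shown with those letters in capitals.
Dapl1, chr2:59484403-59484652, plus strand: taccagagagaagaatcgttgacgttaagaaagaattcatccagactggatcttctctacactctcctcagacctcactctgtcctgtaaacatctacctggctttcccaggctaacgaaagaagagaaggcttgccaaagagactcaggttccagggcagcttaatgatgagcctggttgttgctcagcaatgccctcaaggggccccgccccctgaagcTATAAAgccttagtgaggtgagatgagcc
Mta2, chr19:8941670-8941919, plus strand: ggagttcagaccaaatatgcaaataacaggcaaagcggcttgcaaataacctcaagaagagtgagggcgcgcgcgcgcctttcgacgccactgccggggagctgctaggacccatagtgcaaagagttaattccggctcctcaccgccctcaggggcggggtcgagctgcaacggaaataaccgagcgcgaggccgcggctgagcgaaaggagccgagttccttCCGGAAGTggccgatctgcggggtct
TATAAA lay 29 to 24 bases before the start of Dapl1, and CCGGAAGT 26 to 19 bases before the start of Mta2.

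The share of lower genes differed with the gene's course in untreated development, and the share of higher genes did so less. Genes were classed from the untreated 1-cell and 4-cell arrays, and the 2-cell controls had no part in the class. Of 4215 rising genes, 1735 (41.2%) were lower and 387 (9.18%) were higher in MGCD0103-treated embryos, against 15.4 and 12.1% of all genes. Of 7011 falling genes, 209 (2.98%) were lower and 937 (13.4%) higher. Of 4688 level genes, 511 (10.9%) were lower and 603 (12.9%) higher. Rising genes thus made up 70.7% of the lower DEGs, against 26.5% of all genes. Falling genes made up 48.6% of the higher DEGs, near their 44.1% of all genes. With each control left out in turn, 34.0% of the rising genes stayed lower, against 12.1% of all genes. Of the falling genes 6.48% stayed higher, against 6.99% of all genes.

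The median LFC was -0.76 for rising, 0.02 for level and 0.30 for falling genes. For rising genes the median was below 0 against each control array, at -0.29, -1.06 and -0.96 for replicates 1, 2 and 3. For falling genes it changed sign with the control used and was -0.11, 0.52 and 0.45. The number of falling genes that were higher was 1785 without control replicate 1 and 541 without replicate 2. The number of rising genes that were lower ranged from 1472 to 2103 when any of the 6 arrays was left out.

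**Figure D2:**
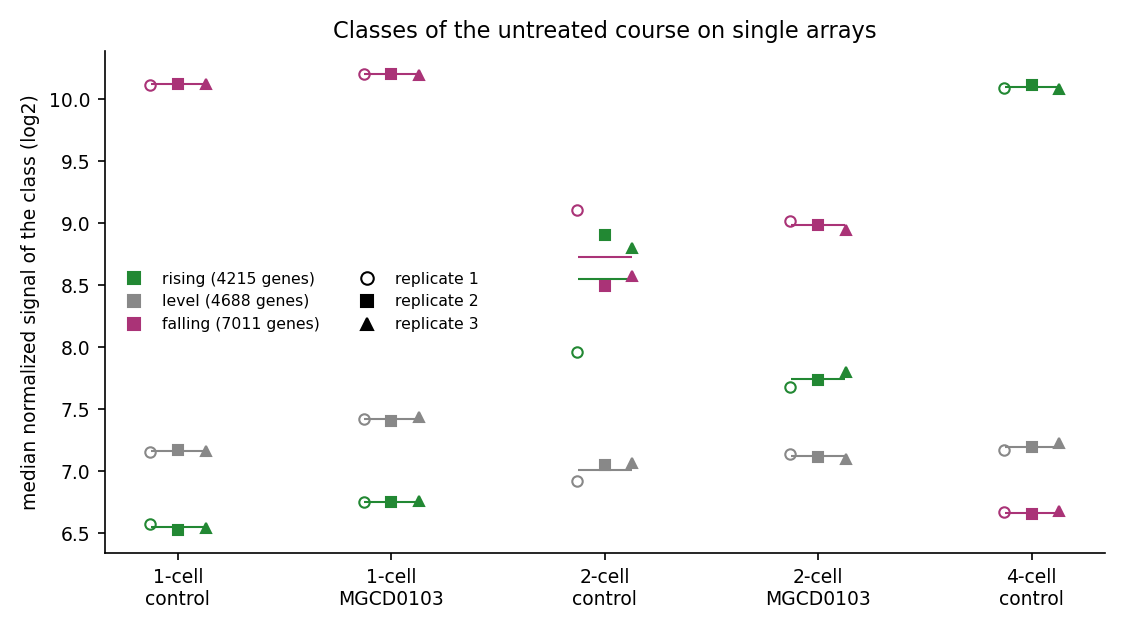
Median normalized log2 signal (y axis) of the genes that rose, stayed level or fell from the untreated 1-cell to the untreated 4-cell stage, 1 symbol per array and a bar at the mean of 3 arrays. In 2-cell embryos the rising genes had medians of 7.96, 8.90 and 8.79 on the control arrays and 7.68, 7.74 and 7.80 on the MGCD0103 arrays, and the falling genes had 9.10, 8.49 and 8.58 against 9.02, 8.98 and 8.95.

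On single arrays the medians of the rising genes were 6.58, 6.52 and 6.54 in 1-cell controls and 10.09, 10.11 and 10.08 in 4-cell controls, the ends that defined the class. All MGCD0103 arrays of the 2-cell stage lay between the 1-cell controls and every 2-cell control. For the falling genes they lay inside the range of the 2-cell controls, below replicate 1 and above replicates 2 and 3. Among the 1735 rising genes that were lower, the median level was 7.36 in 1-cell controls, 9.78 in 2-cell controls, 7.81 in MGCD0103-treated 2-cell embryos and 11.29 in 4-cell controls. In 897 of them (51.7%) the treated mean lay between the 1-cell and the 2-cell control. In 659 it lay below a 1-cell control that was itself below the 2-cell control. In the remaining 179 the 1-cell control was not below the 2-cell control, and the treated mean lay below both. Among the 937 falling genes that were higher, the median level was 9.46, 7.73, 9.11 and 5.95 in the same order, and in 640 (68.3%) the treated mean lay between the 1-cell and the 2-cell control. In 251 it lay above the 1-cell control, and in 46 the 1-cell control was not above the 2-cell control. In both classes the call fixed the side of the 2-cell control on which the treated mean lay. The course made the 1-cell control likely to lie on that side too.

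The stage of the untreated maximum separated the DEGs in the same way. Of the genes with their maximum at the 4-cell stage 39.7% were lower, at the 8-cell stage 34.9%, in the morula 30.0% and in the blastocyst 17.8%. For genes with a maximum in the GV oocyte, MII oocyte or 1-cell embryo the shares were 8.77, 4.40 and 3.13%. The share of higher genes was largest, at 21.1%, for a maximum at the 1-cell stage and 9.84 to 12.9% for the other stages. Gata2 and Xbp1 were among the 12.9% of blastocyst genes that were higher.

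**Figure D3:**
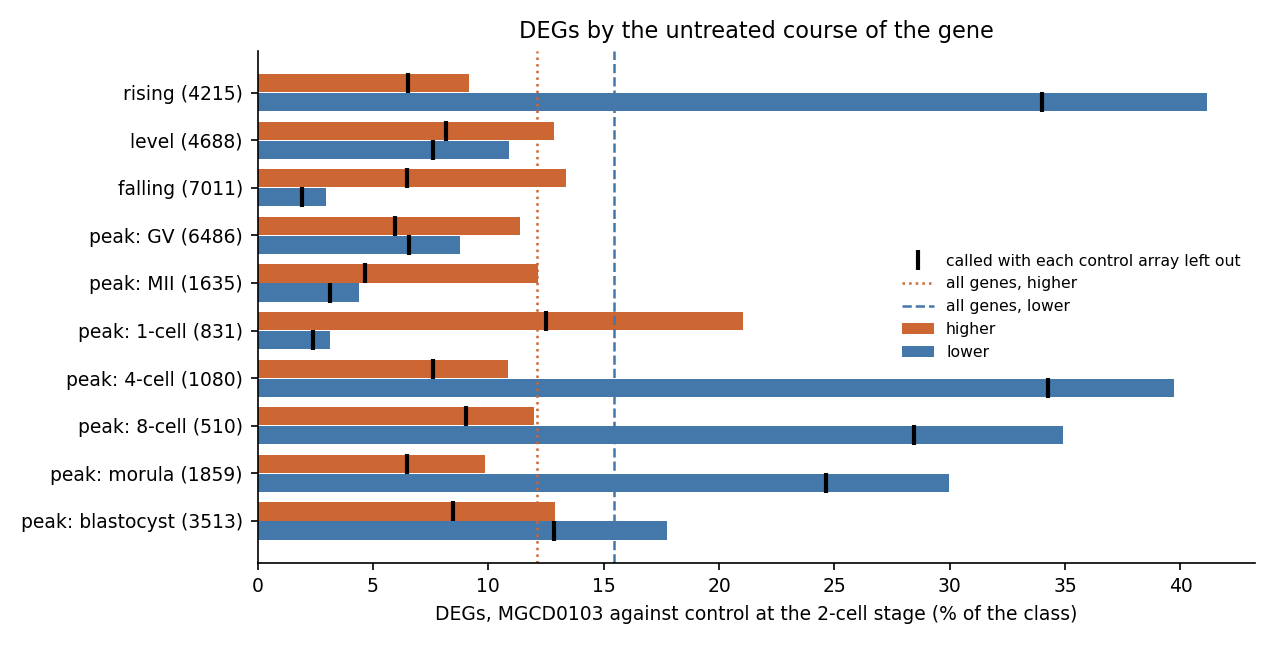
Share of genes (x axis, % of the class) that were higher or lower after MGCD0103 at the 2-cell stage, by untreated course from the 1-cell to the 4-cell stage and by the untreated stage of the highest level, with the number of genes in brackets. The stage of the highest level was taken without the 2-cell stage. Black ticks give the share called with each control array left out, and the vertical lines give the 12.1 and 15.4% of all genes that were higher and lower.

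Genes of the translation apparatus fell together. Of 82 cytosolic ribosomal protein genes 62 (75.6%) were lower, against 15.4% of all genes, and the other 20 did not pass, with a median LFC of -1.51 against 0.06 for all genes. Rps27, a protein of the small subunit, measured 11.09, 12.46 and 12.46 in the controls and 8.34, 8.69 and 8.59 after MGCD0103. Every treated array was below every control (LFC -3.46, SE 0.25, adjusted p = 1.9e-09). Rps15 (-2.99), Rps13 (-2.88) and Rps29 (-2.86) followed. The median of the list was -0.88, -1.86 and -1.78 against control replicates 1, 2 and 3, and 57 members were called with each control left out.

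Of 94 ribosome biogenesis genes 55 (58.5%) were lower and 4 higher (median -1.19). The box C/D methyltransferase Fbl measured 10.95, 11.69 and 11.77 in controls and 7.93, 7.98 and 8.08 after MGCD0103, an LFC of -3.47 (SE 0.15, adjusted p = 9.7e-12). The 28S rRNA methyltransferase Nop2 (-3.44), Bop1 of the PeBoW complex (-3.09) and the nucleolar GTPase Gnl3l (-3.04, well above background on 2 of 3 treated arrays) fell as well. At the 1-cell stage the median LFC of the ribosomal protein and ribosome biogenesis genes was 0.18 and 0.22, against 0.10 for all genes.

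RNA processing, protein turnover and energy genes were lower in part, and their shares are to be read against the 15.4% of all genes that were lower, a difference that was not tested. Every lower member named here was of rising untreated course, a class in which 41.2% of the genes were lower. Of 96 spliceosome and hnRNP genes 27 (28.1%) were lower and 7 higher (median -0.35), with the U11/U12 protein Snrnp35 (-3.91), the splicing regulators Tra2a (-3.15) and Rbm5 (-2.52), and Hnrnpm (-2.48). Of 49 proteasome subunits 11 (22.4%) were lower and 2 higher (median -0.39). Psmb5, the chymotrypsin-like catalytic subunit, fell by 3.96 on the log2 scale, from 9.72, 12.79 and 12.69 to 7.86, 7.72 and 7.73, and Psma3 (-2.28), Psmd12 (-2.16) and Psmd13 (-2.11) fell too. Of 44 autophagy genes 14 (31.8%) were lower and 2 higher (median -0.40), with Atg13 of the ULK1 initiation complex (-3.65), Wdr45 (-2.91), the lysosomal membrane protein Lamp2 (-2.25) and the autophagosome protein Gabarap (-2.19). Of 77 respiratory chain genes 23 (29.9%) were lower and 4 higher (median -0.26). The complex I subunits moved in both directions, with Ndufc1 at -2.46, Ndufa11 at -2.15 and Ndufa9 at -1.88 and Ndufa8 at 2.19.

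Members of the unfolded protein response split. Of 39 genes 13 (33.3%) were lower and 4 (10.3%) higher (median -0.67), against 15.4 and 12.1% of all genes. While Xbp1 rose, Ppp1r15b, which directs a phosphatase to the initiation factor eIF2 alpha, fell from 9.47, 10.68 and 10.58 to 6.13, 6.02 and 6.08 (LFC -4.16, SE 0.21, adjusted p = 3.8e-11). The pseudokinase Trib3 (-2.79) and the endoplasmic reticulum cochaperone Dnajb9 (-2.57) fell as well. Leaving out each control kept 12 of the lower and all 4 of the higher calls, and the median against control replicate 1 alone was -0.18.

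**Figure D4:**
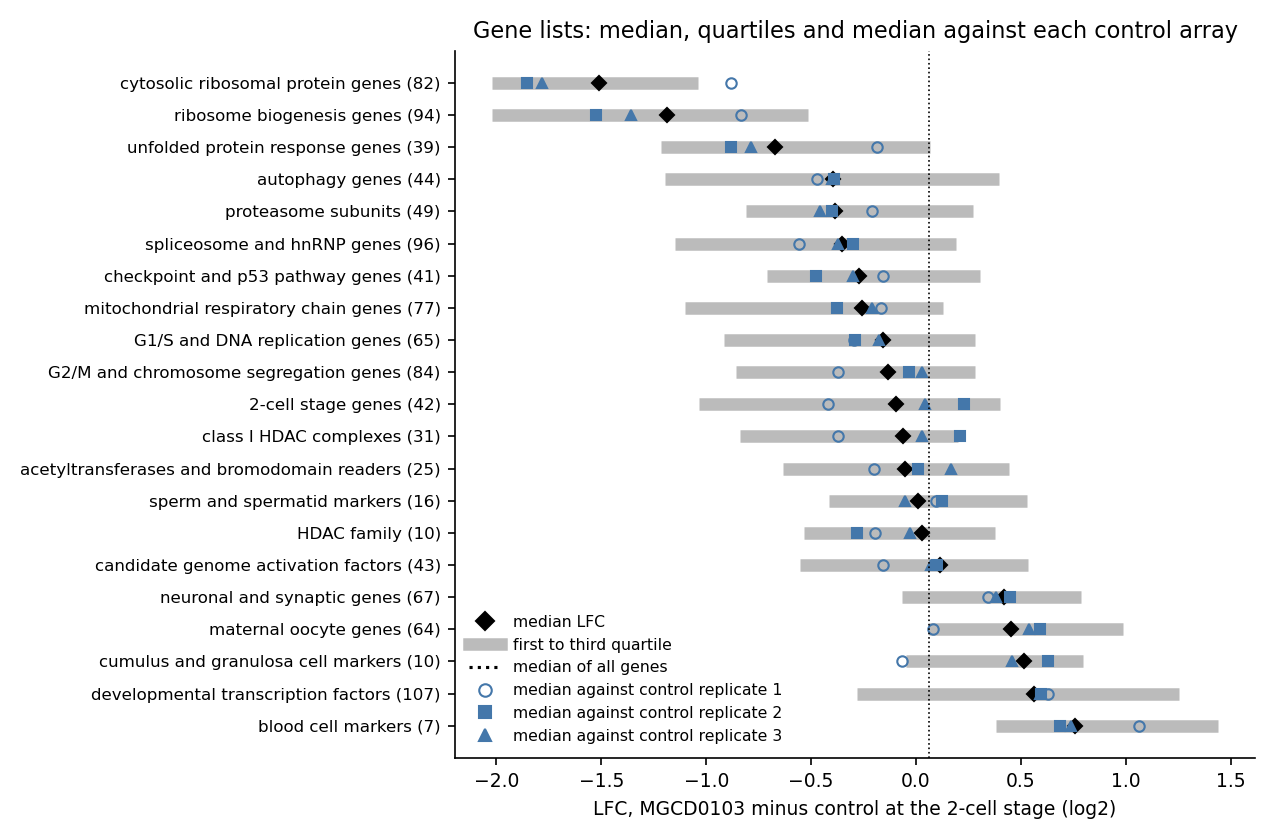
Median LFC (x axis, log2, MGCD0103 minus control) of each gene list with its first and last quartile, and the median against each single control array, with the number of measured genes in brackets. The ribosomal protein list lies at -1.51 and the developmental transcription factors at 0.56, and the dotted line marks the median of all genes at 0.06.

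The mitotic kinase and its regulators did not move together. Of 84 G2/M and chromosome segregation genes 18 (21.4%) were lower and 5 (5.95%) higher (median -0.13). Of 65 G1/S and DNA replication genes 14 (21.5%) were lower and 2 (3.08%) higher (median -0.16). Of all genes 15.4% were lower and 12.1% higher, and the difference was not tested. Cdc25c, the phosphatase that activates CDK1, measured 9.47, 9.91 and 9.96 in the controls and 7.54, 7.64 and 7.78 after MGCD0103 (LFC -2.13, SE 0.21, adjusted p = 8.2e-08). The microtubule depolymerase Kif2c (-2.75), the condensin subunit Ncapd2 (-2.10) and the cohesin protector Sgo2a (-1.99) fell too. The replication genes among the lower DEGs included the cyclin Ccnd1 (-2.70), the polymerase subunit Pole (-2.09), the origin licensing factor Cdc6 (-2.05) and the primase subunit Prim2 (-1.81). Pole lost its call when the spread came from the 6 arrays alone, and Prim2 when its probes were averaged, at -0.75.

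Cdk1 itself measured 10.66, 11.56 and 11.53 in the controls and 9.33, 9.17 and 9.70 after MGCD0103 by its brightest probe (LFC -1.85, SE 0.32, adjusted p = 9.3e-05). The mean of its 3 probes gave -0.47, which was not called. Ccnb1, the cyclin partner of CDK1, measured 15.32, 13.00 and 13.60 in the controls and 15.67, 15.43 and 15.20 after MGCD0103, so that control replicate 1 lay within the treated range (LFC 1.47, SE 0.35, adjusted p = 1.8e-03). Its call was lost without control replicate 2 (LFC 0.98), with the mean of its probes (0.51) and with the 6 arrays alone.

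Checkpoint genes moved in both directions, 7 of 41 higher and 7 lower (17.1% each), near the 12.1 and 15.4% of all genes. The CDK inhibitor Cdkn1a measured 9.07, 8.49 and 8.30 in controls and 10.20, 10.24 and 10.46 after MGCD0103 (LFC 1.68, SE 0.18, adjusted p = 2.5e-07), although the mean of its 2 probes gave 0.25. The stress sensor Gadd45g was higher as well (1.81). The CDK4 inhibitor Cdkn2c (-2.70) and the proapoptotic Pmaip1 (-1.98) were lower.

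Within the HDAC family 1 gene rose and 1 fell among 10 measured, below the shares of all genes, which were 12.1% higher and 15.4% lower. Hdac7, a class IIa enzyme, measured 5.53, 4.60 and 4.85 in controls and 8.04, 7.94 and 7.88 after MGCD0103, with no overlap (LFC 2.96, SE 0.20, adjusted p = 1.4e-09). Hdac1, the class I enzyme that MGCD0103 targets, measured 13.79, 14.82 and 14.64 against 12.35, 12.49 and 12.75 (LFC -1.88, SE 0.21, adjusted p = 5.1e-07). The LFC of Hdac2 was 0.43 (adjusted p = 0.12), and that of Hdac8 was 0.63 (adjusted p = 0.15) but 1.33, and called, without control replicate 1. Hdac5 was at -0.93, and at -1.64 and called without that array. Hdac6 had an LFC of -0.66 (adjusted p = 1.8e-04), below the size limit, and Hdac4, Hdac9 and Hdac10 were at -0.15, 0.03 and 0.03. Hdac3 was not well above background on any control array and on 1 treated array, and 1 of its control values was filled in.

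Of 31 genes of class I HDAC complexes 6 (19.4%) were lower and 1 higher, a share of lower genes near the 15.4% of all genes. Besides Mta2 the lower genes included Tbl1x of the NCoR complex (-1.93), Rcor2 of the CoREST complex (-1.85) and Ing1 of the Sin3 complex (-1.54). Of 25 acetyltransferase and bromodomain genes 4 were lower and 2 higher, with 16.0% lower again near the share of all genes. The lower genes were Brd9 (-2.62), Brpf1 (-1.72), Atad2 (-1.46) and Brd2 (-1.44), which read or help to write acetylated histones.

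Genes of the 2-cell stage moved in both directions. Of 42 measured genes 11 (26.2%) were lower and 6 (14.3%) higher, against 15.4 and 12.1% of all genes. Their median LFC was -0.10, and the median was -0.42, 0.23 and 0.04 against control replicates 1, 2 and 3. Obox6, an oocyte-specific homeobox family member, measured 12.36, 13.63 and 13.75 in controls and 9.39, 9.31 and 9.59 after MGCD0103 (LFC -3.81, SE 0.32, adjusted p = 1.4e-08). Dppa4, a regulator of 2-cell genes (-3.26), and Zscan5b (-3.13) fell too. The 2-cell markers Zscan4c and Zscan4f had mean log2 signals of 11.28 and 15.41 in controls and 12.00 and 15.42 after MGCD0103, normalized without a detection filter. Usp17la went from 12.36 to 12.55. The other 2-cell markers were lower, Zfp352 (14.96 to 14.36), Tcstv3 (14.36 to 13.75), Tdpoz3 (11.50 to 10.90) and Tdpoz4 (11.33 to 9.76). The summed signal of the 7 markers was 100218 to 136805 in controls and 88849 to 93310 after MGCD0103. Several of these genes belong to multicopy families, and cross-hybridization of their probes was not tested. Of 43 candidate ZGA factors 9 (20.9%) were lower and 5 (11.6%) higher (median 0.11). The ETS factor Gabpa fell from 10.83, 11.33 and 11.22 to 7.53, 7.60 and 7.68 (LFC -3.53, SE 0.25, adjusted p = 2.1e-09). The H3K4 demethylase Kdm5b (-2.78) and the retinoic acid receptor Rarg (-2.10, not called with the 6 arrays alone) were lower as well, whereas Nfya (-0.08, adjusted p = 0.67) and the chromatin remodeler Smarca4 (0.19, adjusted p = 0.10) did not pass.

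Maternal oocyte transcripts were higher in part. Of 64 genes 14 (21.9%) were higher and 1 (1.56%) lower, against 12.1 and 15.4% of all genes and 13.4 and 2.98% of the genes of falling course. Their median LFC was 0.45. Rfpl4, an oocyte ubiquitin ligase, measured 14.97, 11.31 and 12.05 in controls and 14.74, 14.62 and 14.59 after MGCD0103 (LFC 1.87, SE 0.53, adjusted p = 5.9e-03). Control replicate 1 lay above all treated arrays, and without control replicate 2 the call was lost. Oosp3 (1.75), Nlrp4c (1.57) and E330034G19Rik (1.57) were also higher, and in each of them control replicate 1 was the highest control. The count of higher maternal genes was 26 without control replicate 1, 9 without replicate 2 and 3 with the spread of the 6 arrays alone. Over all genes the same fits gave 2909, 1447 and 1251 higher genes. The median of the list against control replicate 1 alone was 0.08.

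Developmental transcription factors rose more often than they fell. Of 188 genes on the array 107 passed the detection filter, and of these 39 (36.4%) were higher and 10 (9.35%) lower (median 0.56), against 12.1 and 15.4% of all genes. The median was 0.63, 0.60 and 0.59 against the 3 controls, and 29 of the higher calls held with each control left out. Besides Gata2 and Vax2, Foxc2, a forkhead factor of mesoderm, measured 3.85, 4.72 and 3.95 in controls and 8.75, 8.78 and 9.13 after MGCD0103 (LFC 4.71, SE 0.26, adjusted p = 8.6e-11). Foxc2 was well above background on 1 control array and on all treated arrays. Hesx1, a homeobox gene of the anterior embryo, went the other way, from 5.85, 9.07 and 8.84 to 3.68, 3.77 and 4.02, and was well above background on 1 treated array. Normexp background correction left 17 higher genes, with 877 higher over all 15914 genes. Without a detection filter, which brings in the other listed genes on the array, 74 were higher, with 2650 higher over all 22328 genes.

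Of 67 neuronal genes 10 (14.9%) were higher and 4 (5.97%) lower (median 0.42), against 12.1 and 15.4% of all genes. The RNA-binding protein Elavl4 (2.21) rose. The secretory granule protein Chgb, which was not well above background on any control array, was at least 2.81-fold higher (adjusted p = 5.2e-06), a call lost with normexp. Rtn4rl1 (-3.34), a Nogo receptor homologue, was lower and was well above background on 2 arrays of each group. Its control replicate 1, at 4.39, lay next to the treated arrays, and the call was lost with the 6 arrays alone.

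Among the markers of other cells, 3 of 7 measured blood genes were higher, the T cell receptor chain Cd3e (LFC 1.88), the macrophage receptor Csf1r (1.70) and the globin Hba-a1 (1.18, and 0.93 and not called without control replicate 1). The summed signal of all 18 blood markers was 4769 to 10048 in controls and 8449 to 9142 after MGCD0103, and Ptprc, the defining gene of white blood cells, was well above background on no control array and on 1 treated array. Of 16 measured sperm genes Akap4 was higher, with a bound of 1.57-fold, and Tssk6 (-4.73), Tnp1 (-2.40) and Oaz3 were lower, Oaz3 by at least 1.72-fold since it was not well above background on any treated array. In Tssk6 and Tnp1 control replicate 1 lay at 4.99 and 4.25 and the other controls between 7.61 and 10.60, and both calls were lost with the 6 arrays alone. Oaz3 was not called without control replicate 1 or without MGCD0103 replicate 3, and Akap4, Oaz3 and Inhbb were not called with normexp. Of 10 cumulus genes Inhbb was at least 1.33-fold higher, with 1 control value filled in. Amhr2, a granulosa cell receptor of the same list, was outside the test because some other condition lacked detection, but it was well above background on all 6 arrays, with a mean log2 signal of 11.43 in controls and 6.93 after MGCD0103. The part of other cells in these results was not tested.

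Most of the falls were not seen at the 1-cell stage. At that stage, collected 12 h post insemination, MGCD0103-treated embryos had 544 higher (3.42%) and 102 lower (0.641%) genes by limma, on arrays that were not part of the 2-cell comparison. Of the 1927 genes higher at the 2-cell stage 324 (16.8%) had been higher before, and of the 2455 lower genes 25 (1.02%) had been lower. Conversely, 59.6% of the genes higher at the 1-cell stage were higher at the 2-cell stage. The change of LFC between the stages was called for 3388 genes (21.3%), 954 upward and 2434 downward. Among them were 768 of the higher and 1987 of the lower 2-cell DEGs, which had partly been chosen by the same 2-cell arrays.

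**Figure D5:**
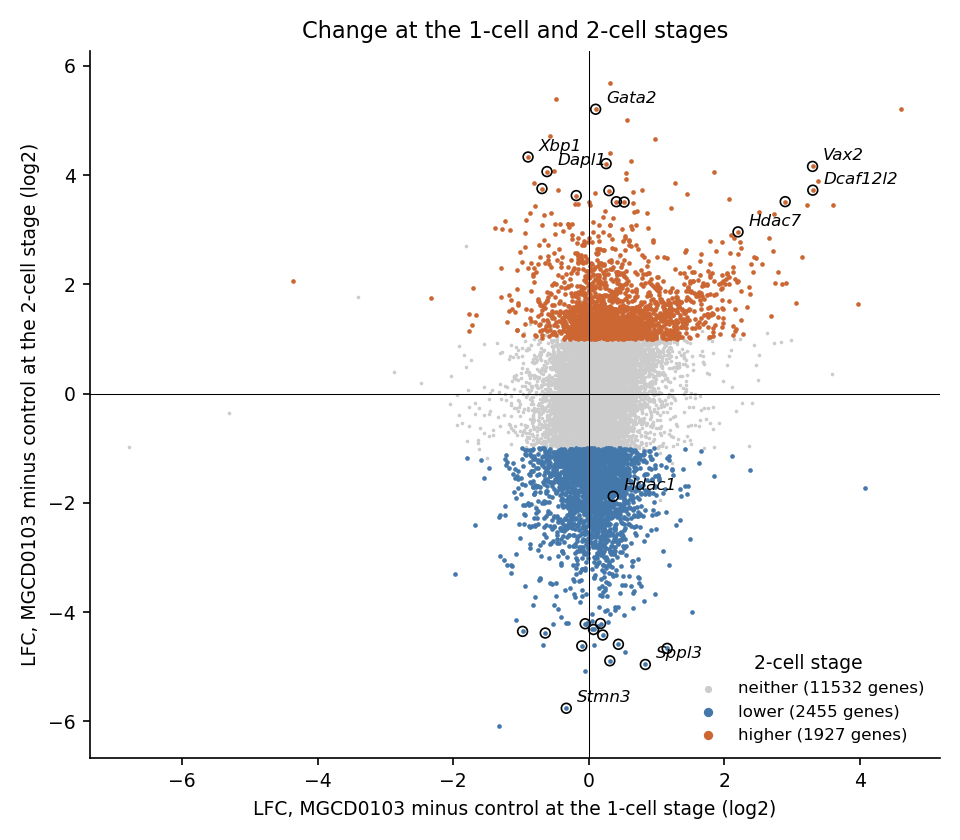
LFC of every gene at the 1-cell stage (x axis) against its LFC at the 2-cell stage (y axis), both log2 and MGCD0103 minus control, coloured by the call at the 2-cell stage. The circled genes are the 24 leading genes with Hdac1 and Hdac7. Vax2, Dcaf12l2 and Hdac7 lie high at both stages, and Gata2 and Stmn3 lie at 0.10 and -0.33 at the 1-cell stage.

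Early and late responses could be told apart gene by gene. Vax2 and Dcaf12l2 were already up at the 1-cell stage, with LFCs of 3.30 (adjusted p = 3.3e-09) and 3.31 (adjusted p = 6.7e-08), and so was Gm6811 with 2.90. Hdac7 was at 2.20 at the 1-cell and 2.96 at the 2-cell stage, and the difference of 0.75 did not pass (adjusted p = 0.053). Gata2 was at 0.10 and Foxc2 at -0.57 at the 1-cell stage. The blood markers Csf1r (1.31) and Cd3e (1.30) had also been higher at the 1-cell stage. In 1-cell embryos the higher 2-cell DEGs had a median LFC of 0.31 and the lower ones of 0.07, against 0.10 for all genes. Cdk1 turned from 1.46 (adjusted p = 4.6e-03) at the 1-cell stage to -1.85, and Gadd45g from -1.17 (adjusted p = 1.1e-03) to 1.81.

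Directly against T247 at the same dose and time, MGCD0103-treated 2-cell embryos had 535 genes higher (3.36%) and 428 lower (2.69%). All T247 arrays of this stage lay on slide 4 and all MGCD0103 arrays on slide 6, so that slide and inhibitor cannot be told apart, and with the slide as a random block 685 genes were called in place of 963. Of the 2455 lower DEGs 295 were also below T247 and 2 above it, and of the 1927 higher DEGs 131 were above T247 and 10 below it. These DEGs were chosen by their MGCD0103 arrays, which also enter this contrast. The leading falls went further with MGCD0103 for Stmn3 (difference -1.97, 95% interval -2.97 to -0.97, adjusted p = 4.6e-03), Sppl3 (-2.43, -3.39 to -1.48) and Syncrip (-1.24, -1.64 to -0.84). Against the shared controls Stmn3 had an LFC of -5.76 with MGCD0103 and -3.79 with T247. Gata2 had LFCs of 5.20 and 5.30, with a difference of -0.10 (interval -0.83 to 0.64), and Xbp1 had 4.33 and 4.19, with a difference of 0.14 (-0.59 to 0.87). Foxc2 (-0.28, -0.82 to 0.26), Hdac7 (-0.14, -0.57 to 0.29) and Cdkn1a (-0.03, -0.40 to 0.34) were not distinguished either. Ccnb1 was higher with MGCD0103 than with T247 (1.36, 0.63 to 2.10, adjusted p = 6.8e-03), and Gabpa (-1.18, -1.71 to -0.65) and Ppp1r15b (-1.78, -2.23 to -1.34) were lower. Itln1 differed most among the leading falls (-5.42, -7.29 to -3.54), since its LFC with T247 was 1.21 (adjusted p = 0.27).

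Background flags were compared over all 22328 named genes on the array, including those that did not pass the detection filter. Of 6509 genes that were well above background on none of the control arrays, 443 (6.81%) were so on all MGCD0103 arrays, whereas 46 of the 13559 genes measured on all controls (0.339%) were lost on all treated arrays. Not all of the 443 rose, and Scara5 and Crygf had LFCs of -0.61 and 0.48. At the 1-cell stage 52.3 to 53.4% of spots passed on the MGCD0103 arrays of slide 6 and 46.8 to 50.6% on the controls. The part of the slide in these counts cannot be told apart from that of the treatment. Slc35g2, a solute carrier family member, rose from 3.94, 3.83 and 3.51 to 9.52, 9.52 and 9.29, at least 39.6-fold. Ankrd34b was at least 32.9-fold higher. The signalling ligand Wnt16 (at least 18.6-fold), the homeobox gene Nkx6-3 (15.4-fold) and the interleukin-10 receptor chain Il10ra (13.7-fold) also appeared. All 5 were well above background on all T247 arrays, which lay on slide 4 and also apart from the controls, and of the 443 genes 329 were. On the 1-cell MGCD0103 arrays 161 of the 443 were well above background on all replicates, and 82 were so on no untreated array outside the 2-cell stage.

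Among the genes that were lost, Eid2, an inhibitor of acetyltransferase-dependent differentiation, went from 7.39, 10.23 and 9.95 to 1.68, 3.17 and 3.25, at least 40.2-fold lower. Mill2 (11.5-fold), 2210016L21Rik (8.57-fold), Gpx7 (7.61-fold) and Tlcd3b (7.20-fold) followed, each as a lower bound. Of the 46 genes 35 were well above background on all untreated 4-cell arrays and 17 on all T247 arrays.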

How the data were processed

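Stage, treatment and replicate came from the labels. Per the methods, the authors labelled amplified cRNA with Cy3, hybridized it to 1-colour Agilent arrays of 55681 probes and read them with Feature Extraction (9.5.1.1 in the methods, 10.7.1.1 in the file headers). The deposited scanner values are background-subtracted intensity values on a linear scale with quality flags. The log2 values that the authors deposited in the series matrix (column medians 8.71 to 9.58, r = 0.998 with the log2 signal, centring not stated) served as an alternative only. Arrays have no read depth, and 3 per group limit the precision. The methods call replicates biological.

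RefSeq named probes by accession (27235), symbol (3581) or synonym (563), and 24302 were unnamed and not used. Kept were probes positive and significant on at least 1 array in each of 8 conditions (24 arrays), and the brightest was taken per gene, giving 15914 genes. Missing spots (1.72% of values on the 6 arrays) were filled in from the covariance of the arrays. Signals were smooth quantile normalized by code written for this work. The linear model of all 24 arrays was fitted in R 4.3.3 (limma 3.58.1). The tests were tried on simulated data. A course was rising or falling when 4-cell minus 1-cell controls passed the same limits as the DEGs, in a fit of 21 untreated arrays of 7 stages without the 2-cell stage, and level otherwise. Where no array of a group was well above background, the fold is a lower bound against, per array, the higher of the dimmest well-measured signal and the probe's own.

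Named were the 12 largest rises and falls among DEGs well above background on all 6 arrays, without overlap and called with each control left out, the 5 largest detection switches each way, up to 4 members per gene list, the HDAC family, and Cdk1, Ccnb1, Cdc25c, Cdc6, Kdm5b, Smarca4, Nfya and Gadd45g. The members and lists were chosen with earlier results of these data known. Replicate numbers were not used as pairs. Alternatives covered scaling, background correction, detection, missing spots, probe choice, arrays in the fit, array weights, variance model, threshold, slide, replicate number, the deposited matrix, the course limit and each replicate left out.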

Additional observations from a re-analysis of the deposited data

Results flagged for a closer look

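The effect of MGCD0103 differed between the 1-cell and the 2-cell stage for 3388 of 15914 genes, by the limma test of the change in LFC. Without control replicate 1 of the 2-cell stage the number was 5535. Among the genes with the largest rise at the 2-cell stage the LFC was larger than at the 1-cell stage for Xbp1 (5.22), Gata2 (5.10), Dapl1 (4.68), Tnfrsf23 (4.44), 4921504E06Rik (3.95), Snai2 (3.81), Ralb (3.41), Bcl3 (3.10) and S100a6 (2.98), where the value in brackets is the 2-cell minus the 1-cell LFC. Among the genes with the largest fall it was lower for Pheta1 (-5.82), Sppl3 (-5.80), Stmn3 (-5.43), Apom (-5.21), Cd63 (-5.03), Trub2 (-4.63), Gtf3c5 (-4.52), Itln1 (-4.39), Trim43b (-4.39), Syncrip (-4.16), Mta2 (-3.74) and Ifi35 (-3.38). These genes were chosen by their 2-cell values, which also enter the test of the change. For Itln1 control replicate 1 was at 5.94 and the other 2-cell controls at 11.59 and 11.47. MGCD0103-treated embryos of both stages were on slide 6 and their controls on slides 1 to 3.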

How the results depend on the processing

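The counts of the comparisons kept within 1.5 times of their values in 156 of 178 refits, and the LFCs of the 107 named genes kept their side of the threshold in 2168 of 2196 refits, with no called gene reversed. The number of higher genes was 877 with normexp background correction, 1251 with the 6 arrays alone and 969 in the deposited matrix of 10827 genes, against 1927, and ranged from 1447 to 2909 when an array was left out. Rising genes that were higher numbered 164 with normexp, 249 without filled-in genes and 150 in the matrix, against 387. Falling genes that were higher numbered 503 with normexp, 466 with the 6 arrays alone, 1685 with array weights and 545 in the matrix, against 937, and 541 to 1785 when an array was left out. Falling genes that were lower numbered 121 with normexp, 323 with array weights and 104 when the course had to change by at least 2, against 209, and 162 to 326 when an array was left out. The change between stages was called for 5541 genes with array weights, against 3388, and for 2720 to 5535 when an array was left out. The difference from T247 was called for 280 genes with normexp, 639 at an adjusted p below 0.01 and 489 in the matrix, against 963, and for 663 to 1142 when an array was left out. The cause of these differences was not tested, except that the matrix holds fewer genes, that the filter on filled-in values leaves 12834 genes, and that the array weights gave control replicate 1 a weight of 0.0301. Of 819 refits of gene list counts, 126 moved by more than 1.5 times, mostly in lists with few calls. With the replicate block 1929 genes were higher and 2454 lower, and no count of the comparisons moved by more than 1.5 times; same-numbered arrays of the 2 groups deviated together at r = 0.212, 0.0117 and 0.213, so that the numbers were not taken as pairs. With the slide as a random block (correlation 0.195) 1849 were higher and 2390 lower. Of 1133 DEGs with a further probe, all further probes went the same way in 920 (81.2%).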
